A study of Mus musculus with 6 samples.

Results

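The transcripts of 33 genes of PPARα-driven fatty acid oxidation were followed in mouse liver, out of 45777 genes in the deposited table. They were taken by gene symbol, a rule that uses no measured value, and comprise the receptor gene Ppara, 4 genes of the carnitine shuttle, 10 of mitochondrial β-oxidation, 3 of electron transfer to the respiratory chain, 6 peroxisomal genes, 2 microsomal ω-hydroxylases, 1 ketogenic gene, 4 acyl-CoA thioesterases and 2 further PPARα targets. All 33 were found and all 33 passed the filter on low counts. Bulk liver RNA was sequenced from male C57BL/6 mice whose library names carry HFD, the high-fat diet, with 3 libraries in each genotype. LT littermates were Fpn flox/flox. The other group, Fpn-LKO, was Alb-Cre; Fpn flox/flox, in which Cre recombinase under the albumin promoter is active in hepatocytes. Both groups thus carried the floxed ferroportin allele, and all 6 libraries are labelled as batch 1. The comparison asks whether loss of the iron exporter ferroportin from hepatocytes was accompanied by a change in the transcripts of fat-burning enzymes. The methods say that the line was backcrossed to C57BL/6J. They also say at what age the diet began, but not at what age these livers were taken.

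PPARα is a nuclear receptor that is activated by fatty acids and binds DNA as a dimer with RXR at a direct repeat of the hexamer AGGTCA with 1 base between the copies. In fasting or fat-loaded hepatocytes it induces the enzymes that carry fatty acids into mitochondria and shorten them there, the peroxisomal pathway for very long chains, the microsomal cytochromes of the Cyp4a family and the enzymes of ketone body synthesis. In rodents the Cyp4a genes, the acyl-CoA thioesterases, Ehhadh and Pdk4 are its most inducible targets, whereas the mitochondrial enzymes respond within a narrower range.

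Promoter windows from RefSeq (GRCm38.p6, 250 bases before to 50 bases after each gene start) were available for 26 of the 33 genes, in 28 windows. The full direct repeat, AGGTCANAGGTCA, was in none of these windows and in 0.0396% of all 32851 promoter windows of the same length, both strands searched. The looser form AGGNCANAGGNCA, which also matches every copy of the full repeat, was likewise in none, against 0.381% of all windows. A single extended copy, AAGGTCA, was found in windows of 3 genes, Acadm, Acot3 and Acot4, and in 4.72% of all windows. Acadm and Acot4 are shown because they hold that copy, in capitals and in both as the reverse complement TGACCTT, and each is read 5′ to 3′ along its gene. The copy begins at position -249 from the gene start in Acadm and at position -13 from the start used for the Acot4 window. That Acot4 start lies inside the gene, whose annotated span begins at chr12:84037254.
Acadm (chr3:153944594-153944893, minus strand): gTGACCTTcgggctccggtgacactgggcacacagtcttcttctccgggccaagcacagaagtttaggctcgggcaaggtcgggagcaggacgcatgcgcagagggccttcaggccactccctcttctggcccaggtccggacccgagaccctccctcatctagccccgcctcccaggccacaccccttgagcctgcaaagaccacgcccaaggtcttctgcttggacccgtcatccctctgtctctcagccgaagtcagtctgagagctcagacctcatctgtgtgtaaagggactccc
Acot4 (chr12:84038129-84038428, plus strand): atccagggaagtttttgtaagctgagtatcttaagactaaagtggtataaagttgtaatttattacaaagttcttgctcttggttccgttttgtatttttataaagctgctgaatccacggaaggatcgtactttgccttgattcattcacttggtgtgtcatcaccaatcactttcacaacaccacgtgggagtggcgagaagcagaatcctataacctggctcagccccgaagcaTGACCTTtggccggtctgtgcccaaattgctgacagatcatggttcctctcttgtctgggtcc
The windows of Bdh1 are shown because it alone of the 33 genes had groups that did not overlap, against 10.6% of all genes tested. RefSeq gives it 2 starts. Neither holds the extended copy, so nothing is in capitals.
Bdh1 (chr16:31422047-31422346, plus strand): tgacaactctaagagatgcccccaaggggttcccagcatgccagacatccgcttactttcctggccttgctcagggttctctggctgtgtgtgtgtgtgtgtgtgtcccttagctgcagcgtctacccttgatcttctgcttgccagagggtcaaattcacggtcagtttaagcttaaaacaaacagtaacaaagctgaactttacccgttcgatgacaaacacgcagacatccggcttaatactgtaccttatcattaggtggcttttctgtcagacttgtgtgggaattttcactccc
Bdh1 (chr16:31428503-31428802, plus strand): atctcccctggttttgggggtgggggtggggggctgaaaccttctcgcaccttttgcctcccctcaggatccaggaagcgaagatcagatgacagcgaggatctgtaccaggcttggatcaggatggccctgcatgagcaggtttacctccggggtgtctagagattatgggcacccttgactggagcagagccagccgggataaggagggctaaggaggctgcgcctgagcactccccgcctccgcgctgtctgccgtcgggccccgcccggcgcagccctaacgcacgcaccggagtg
Hadha and Hadhb, which encode the α and β subunits of the mitochondrial trifunctional protein, start 273 bases apart and are transcribed away from each other, so that their windows share 228 bases, printed here on the plus strand.
Hadha and Hadhb (chr5:30155003-30155230, plus strand): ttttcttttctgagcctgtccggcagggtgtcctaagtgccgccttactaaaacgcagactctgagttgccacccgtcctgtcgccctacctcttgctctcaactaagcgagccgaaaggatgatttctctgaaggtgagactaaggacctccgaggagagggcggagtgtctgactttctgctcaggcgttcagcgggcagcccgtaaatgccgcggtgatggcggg

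The libraries held 43086184 to 47778683 counts. Values below are CPM, the counts relative to the library size after scaling by TMM, a trimmed-mean factor, and values in each genotype are listed in the order of replicates 1 to 3. Fold changes are Fpn-LKO over LT on the log2 scale. Slc40a1, the ferroportin gene, had 154, 180.3 and 126 CPM in the LT livers, against 143, 143 and 176 CPM in Fpn-LKO, a log2 fold change of 0.01 (95% interval -0.37 to 0.38). The count of the targeted gene over all its exons therefore showed no loss under the Fpn-LKO label, no source used here says which exons are flanked by the lox sites, and every direction below rests on the labels. The study reports, by other means that are not analysed here, that ferroportin was deleted specifically in hepatocytes of its Fpn-LKO mice. Liver cells other than hepatocytes contribute to these counts, and fewer cells of a type cannot be told apart from less RNA per cell. Of 11 hepatocyte markers measured, the summed level was 98973, 81933 and 83373 CPM in the LT livers and 93204, 85029 and 83594 CPM in Fpn-LKO. The adipocyte markers Adipoq, Plin1 and Lep and the pancreatic markers Prss2, Cpa1 and Pnlip had no read in any library, while Cfd and Cela1, the 2 tested of these 8 markers, together had 10.8, 13.6 and 27.1 CPM in the LT livers and 14.6, 16.2 and 15.8 CPM in Fpn-LKO, highest in LT replicate 3.

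The LT livers differed among themselves in these genes, with replicate 1 high and replicate 3 low, so results are also given without each of them. Both were picked from the values of these same genes, so shares of all genes are no even reference for counts without them. None of the 33 genes passed an adjusted p of 0.05 by the quasi-likelihood test of edgeR, Benjamini-Hochberg adjusted, where 0.0232% of all 17274 genes tested did (4 genes). Bdh1 alone had an unadjusted p below 0.05, which is 1 of 33 against 4.80% of all genes tested. It was also the one gene of the 33 whose groups did not overlap, against 10.6% of all genes. With DESeq2 and with edgeR's exact test, none of the 33 passed after adjustment either. The log2 fold change was below 0 for 28 of the 33 genes, against 50.6% of all genes, and its median was -0.11, against -0.00395 over all genes tested. By gene group, the median was -0.08 for the carnitine shuttle, -0.09 for mitochondrial β-oxidation, -0.07 for electron transfer, -0.19 for the peroxisomal genes, -0.91 for the microsomal genes, -0.44 for the thioesterases and 0.17 for the 2 other targets. The lean toward lower values rested on 1 library: without LT replicate 1 the log2 fold change was below 0 for 13 of 33, against 50.5% of all genes, and the median was 0.11. Without LT replicate 3 it was below 0 for all 33, against 49.4% of all genes, and the median was -0.25. On log2(TPM + 1), where TPM is the deposited level corrected for transcript length, 14 of 33 were below 0, against 30.9% of all genes tested on that scale. The median of the 33 there was 0.017, against 0.083 over all genes tested on that scale.

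**Figure D1:**
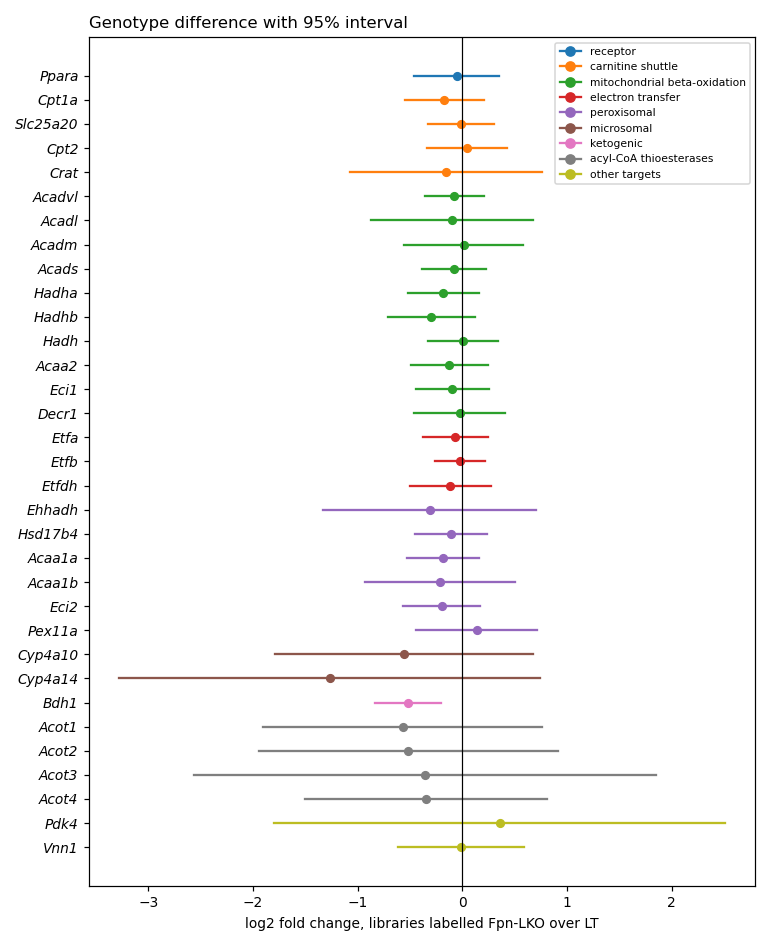
The log2 fold change of each of the 33 genes (points, Fpn-LKO over LT) with its 95% interval from edgeR's quasi-likelihood fit (lines), colored by gene group. The interval of Bdh1, from -0.83 to -0.20, lies wholly below 0 and those of the other 32 genes include 0, with the widest for Pdk4, Acot3 and Cyp4a14.

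Bdh1, the mitochondrial enzyme that interconverts acetoacetate and β-hydroxybutyrate in the last step of ketone body synthesis, lies at chr16:31422297-31458901 (GRCm38.p6). It had 334, 369.7 and 303 CPM in the LT livers, against 256, 208 and 240.0 CPM in Fpn-LKO. All 3 libraries labelled Fpn-LKO lay below every LT library. Its log2 fold change was -0.52 ± 0.14 (SE; 95% interval -0.83 to -0.20), with an unadjusted p of 0.00584 and an adjusted p of 0.834 by the quasi-likelihood test of edgeR, Benjamini-Hochberg adjusted. The exact two-sided permutation test gave p = 0.1, the smallest that 3 libraries against 3 allow. Its unadjusted p stayed below 0.05 with each of the 6 libraries left out in turn, with log2 fold changes between -0.58 and -0.44, and was 0.0505 on log2(TPM + 0.1). Its adjusted p over all alternatives ran from 0.118 to 0.9996. Per length, Bdh1 had 138 ± 22.0 TPM in LT and 102 ± 0.924 TPM in Fpn-LKO. Over 240 bases its transcript is 100% identical to Gm15743, so some of its reads may be shared. Of the 10 other genes tested of ketone body synthesis and use, 0 had an unadjusted p below 0.05.

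The receptor transcript itself, Ppara, had 511, 408 and 339 CPM in the LT livers, against 389.6, 442 and 381 CPM in Fpn-LKO, with overlapping groups and a log2 fold change of -0.05 ± 0.17 (SE; 95% interval -0.46 to 0.35). The highest and the lowest of the 6 values were both in LT littermates. Among 20 genes for its partners and coregulators, 1 (5%) had an unadjusted p below 0.05, against 4.80% of all genes tested. This was Hnf4a, a nuclear receptor that maintains hepatocyte identity, with 239, 250.2 and 265 CPM in the LT livers, against 310.3, 344 and 286 CPM in Fpn-LKO and a log2 fold change of 0.32 ± 0.12 (SE; 95% interval 0.03 to 0.60). Its groups did not overlap, and its adjusted p was 0.982 by the quasi-likelihood test of edgeR, Benjamini-Hochberg adjusted. Hnf4a was named for its unadjusted p, which favors such a gap.

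The carnitine shuttle moves long-chain acyl groups into mitochondria. Cpt1a, the carnitine palmitoyltransferase of the outer membrane that sets the rate of entry, had 662, 691 and 520.2 CPM in the LT livers, against 488, 593 and 581 CPM in Fpn-LKO. The ranges overlapped, and the log2 fold change was -0.17 ± 0.16 (SE; 95% interval -0.55 to 0.21). Slc25a20, the carnitine-acylcarnitine carrier of the inner membrane, had 247, 199 and 184 CPM in the LT livers, against 209, 211 and 205 CPM in Fpn-LKO. Cpt2, which re-forms acyl-CoA on the matrix side, had 173, 168 and 116 CPM in the LT livers, against 162, 157 and 152 CPM in Fpn-LKO. For both, LT replicate 1 was highest and LT replicate 3 lowest, and the log2 fold changes were -0.01 (95% interval -0.33 to 0.30) for Slc25a20 and 0.05 (95% interval -0.34 to 0.43) for Cpt2. Crat, the carnitine acetyltransferase that buffers short acyl groups, had 104, 65.8 and 32.3 CPM in the LT livers, against 78.4, 57.6 and 45.5 CPM in Fpn-LKO, a 3.21-fold range within LT against 1.72-fold within Fpn-LKO, and a log2 fold change of -0.15 (95% interval -1.07 to 0.77).

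In the mitochondrial spiral, 4 reactions shorten the acyl chain by removing acetyl-CoA. The 4 acyl-CoA dehydrogenases of the first reaction, ordered here from very long to short chains, are encoded by Acadvl, Acadl, Acadm and Acads. Acadvl had 609, 619 and 571 CPM in the LT livers, against 546, 572 and 589 CPM in Fpn-LKO. Acadl had 133, 119 and 54.5 CPM in the LT livers, against 69.4, 105 and 111 CPM in Fpn-LKO. Acadm, for medium chains, had 963, 792 and 531 CPM in the LT livers, against 928, 672 and 705 CPM in Fpn-LKO. Both Acadl and Acadm were lowest in LT replicate 3. Acads had 73.8, 80.4 and 80.6 CPM in the LT livers, against 78.3, 81.7 and 61.7 CPM in Fpn-LKO. The groups overlapped for all 4, and the log2 fold changes ran from -0.10 for Acadl to 0.01 for Acadm. The range within LT was 2.44-fold for Acadl and 1.81-fold for Acadm, but 1.08-fold for Acadvl and 1.09-fold for Acads.

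The trifunctional protein carries out the remaining reactions on long chains. Its α subunit gene Hadha had 608, 533 and 455 CPM in the LT livers, against 451, 462 and 494 CPM in Fpn-LKO. Hadhb, for the β subunit, had 694, 568 and 453 CPM in the LT livers, against 469, 425 and 503 CPM in Fpn-LKO. Both members of this head-to-head pair had LT replicate 1 highest and a log2 fold change below 0, -0.18 (95% interval -0.52 to 0.16) for Hadha and -0.30 (95% interval -0.71 to 0.12) for Hadhb. The unadjusted p of Hadhb was 0.141, and its transcript is 99.8% identical over 1428 bases to Gm13910, so part of its reads may be placed on that copy. For the remaining genes of the spiral the log2 fold changes were 0.01 (95% interval -0.33 to 0.34) for Hadh, the medium- and short-chain 3-hydroxyacyl-CoA dehydrogenase, and -0.12 (95% interval -0.49 to 0.24) for Acaa2, the 3-ketoacyl-CoA thiolase. Eci1, an enoyl-CoA isomerase, and Decr1, a 2,4-dienoyl-CoA reductase, handle the double bonds of unsaturated fatty acids, and had log2 fold changes of -0.09 (95% interval -0.44 to 0.25) and -0.03 (95% interval -0.46 to 0.41). LT replicate 1 was the highest of the 6 libraries for these 4 genes. Etfa and Etfb, the subunits of the flavoprotein that collects electrons from the dehydrogenases, and Etfdh, which passes them to ubiquinone, had log2 fold changes of -0.07 (95% interval -0.38 to 0.24), -0.02 (95% interval -0.26 to 0.21) and -0.11 (95% interval -0.50 to 0.27). Etfb was the steadiest of the 33 genes within LT, with 189.7, 185 and 189 CPM in the LT livers, against 175, 192 and 187 CPM in Fpn-LKO. Etfb shares 626 bases at 99.7% identity with Gm45233, which makes its count less certain. On the linear scale, its 95% interval ran from 0.833 to 1.16 times the LT level.

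Peroxisomes shorten very long and dicarboxylic chains. Ehhadh, the bifunctional enzyme of this pathway and a classic PPARα target, had 1665, 1097 and 429 CPM in the LT livers, against 764, 752 and 1055 CPM in Fpn-LKO. The LT libraries spanned a 3.88-fold range that took in all 3 libraries labelled Fpn-LKO, and the log2 fold change was -0.31 ± 0.44 (SE; 95% interval -1.33 to 0.70). Acaa1b, a peroxisomal thiolase, had 2776, 2062 and 1124 CPM in the LT livers, against 1668, 1681 and 1789.8 CPM in Fpn-LKO. Here too the Fpn-LKO values, within 1.07-fold of each other, lay inside the 2.47-fold range of LT, with a log2 fold change of -0.21 (95% interval -0.93 to 0.51). Its paralog Acaa1a, 96.6% identical to it over 1428 transcript bases and so uncertain where reads were split between them, had 407, 354 and 292 CPM in the LT livers, against 304, 309.6 and 312 CPM in Fpn-LKO. Hsd17b4, the D-bifunctional protein, had 836, 749.6 and 629.6 CPM in the LT livers, against 691, 682 and 679.8 CPM in Fpn-LKO, and Eci2, a peroxisomal isomerase, had 477, 349.8 and 360.3 CPM in the LT livers, against 317, 355 and 365 CPM in Fpn-LKO. The log2 fold changes were -0.18 (95% interval -0.53 to 0.16) for Acaa1a, -0.11 (95% interval -0.46 to 0.24) for Hsd17b4 and -0.20 (95% interval -0.56 to 0.17) for Eci2. Pex11a, which promotes peroxisome division, had 111, 87.5 and 54.4 CPM in the LT livers, against 86.4, 108 and 84.2 CPM in Fpn-LKO, with a log2 fold change of 0.14 (95% interval -0.44 to 0.72).

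Of the 33 genes, the microsomal ω-hydroxylase Cyp4a14 had the largest difference in CPM between single livers. Cyp4a14 and Cyp4a10 are neighbors (chr4:115486200-115533649, GRCm38.p6) and encode cytochromes P450 that hydroxylate the far end of fatty acids, the first step toward dicarboxylic acids. Cyp4a14 had 3777, 1791 and 189 CPM in the LT livers, against 1197, 518 and 679.8 CPM in Fpn-LKO. Its highest and lowest libraries were both LT, 20.0-fold apart, whereas the Fpn-LKO libraries were within 2.31-fold of each other. The log2 fold change of -1.27 ± 0.86 (SE; 95% interval -3.28 to 0.75) had an unadjusted p of 0.183 and an adjusted p of 0.982 by the quasi-likelihood test of edgeR, Benjamini-Hochberg adjusted. Without LT replicate 1 it was -0.31 and without LT replicate 3 it was -1.80. Cyp4a10 had 2549, 1800.0 and 449.7 CPM in the LT livers, against 1153, 935 and 1179.8 CPM in Fpn-LKO, 5.67-fold apart within LT and 1.26-fold apart within Fpn-LKO. Its log2 fold change was -0.55 ± 0.53 (SE; 95% interval -1.79 to 0.68), which became -0.05 without LT replicate 1 and -0.996 without LT replicate 3. Cyp4a10 is 97.2% identical over 1530 transcript bases to Cyp4a32 and 96.1% over 1593 to Cyp4a31, so its reads may be shared with them. These neighbors, named after their values were seen, showed the same order within LT. Cyp4a31 had 84.8, 61.7 and 16.4 CPM in the LT livers, against 36.3, 40.3 and 51.1 CPM in Fpn-LKO. Cyp4a32 had 159, 111 and 49.1 CPM in the LT livers, against 81.1, 84.5 and 90.7 CPM in Fpn-LKO.

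**Figure D2:**
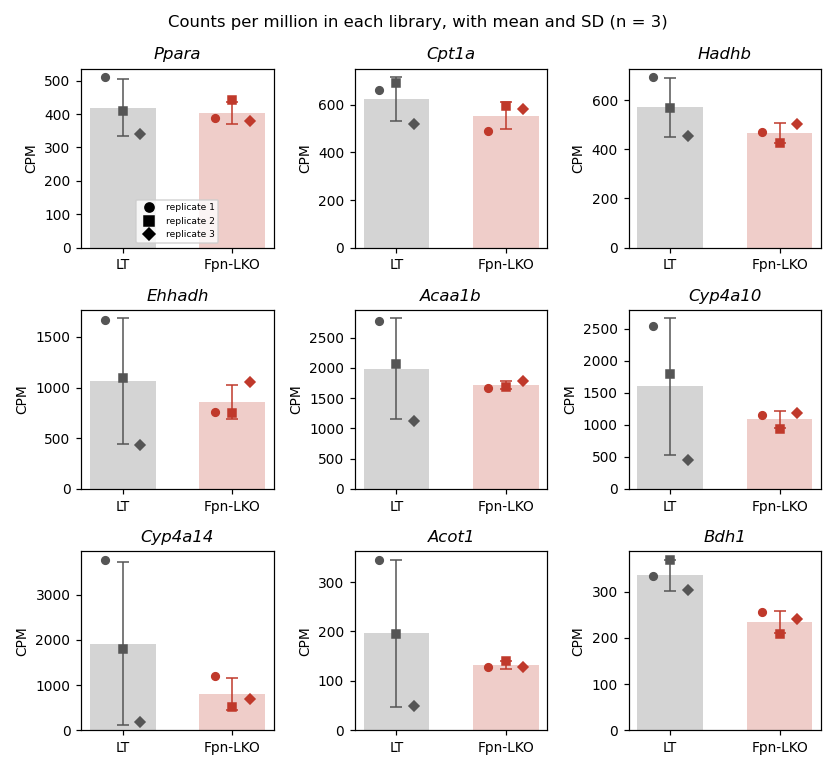
CPM in each library for 9 genes, with bars for the mean of 3 libraries, error bars for the SD and a marker for each replicate. Except in Cpt1a and Bdh1, LT replicate 1 (gray circle) is the highest of the 6 libraries, the 3 Fpn-LKO libraries of Acaa1b, Cyp4a10, Cyp4a14, Acot1 and Ehhadh sit inside the LT range, and of these 9 genes Bdh1 alone has groups that do not overlap.

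The acyl-CoA thioesterases release free fatty acid and CoA from acyl-CoA. Acot1, Acot2, Acot3 and Acot4 lie together within 72540 bases (chr12:83987861-84060400, GRCm38.p6). The cytosolic enzyme gene Acot1 had 346, 194 and 48.3 CPM in the LT livers, against 127, 141 and 128 CPM in Fpn-LKO. Acot2, for the mitochondrial enzyme, had 127, 61.5 and 14.9 CPM in the LT livers, against 50.8, 42.6 and 48.9 CPM in Fpn-LKO. Both had a 7.16-fold or greater range within LT and a 1.19-fold or smaller one within Fpn-LKO. The peroxisomal enzyme genes followed the same order within LT. Acot3 had 134, 29.1 and 5.12 CPM in the LT livers, against 67.7, 38.3 and 25.1 CPM in Fpn-LKO, and Acot4 had 112, 53.1 and 22.1 CPM in the LT livers, against 57.8, 48.8 and 40.3 CPM in Fpn-LKO. Log2 fold changes were -0.57 (95% interval -1.90 to 0.76) for Acot1, -0.52 (95% interval -1.95 to 0.91) for Acot2, -0.36 (95% interval -2.57 to 1.85) for Acot3 and -0.35 (95% interval -1.51 to 0.81) for Acot4, all 4 overlapping. Without LT replicate 1 they became 0.12, 0.31, 1.35 and 0.38, and without LT replicate 3 they became -1.03, -0.99, -0.90 and -0.75. Acot1 and Acot2 are 95.1% identical over 1274 transcript bases and Acot1 and Acot3 93.8% over 597, so the counts of single members are uncertain.

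Pdk4, the kinase that inhibits pyruvate dehydrogenase and spares glucose when fat is burned, had the fewest counts of the 33, with 19.0, 3.99 and 0.991 CPM in the LT livers, against 5.14, 7.47 and 18.2 CPM in Fpn-LKO. LT replicate 3 had 41 counts, the lowest count of any of the 33 genes in any library. Its log2 fold change was 0.36 ± 0.92 (SE; 95% interval -1.80 to 2.51), which became 2.04 without LT replicate 1 and -0.34 without Fpn-LKO replicate 3. Vnn1, a pantetheinase, had 288, 170.1 and 139.8 CPM in the LT livers, against 221, 185 and 188 CPM in Fpn-LKO, with a log2 fold change of -0.01 (95% interval -0.61 to 0.59).

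For most of the 33 genes the values shared an order within LT. LT replicate 1 was the highest of the 6 libraries for 28 of the 33, against 14.7% of all genes tested, and LT replicate 3 was the lowest for 22, against 18.7%. LT replicate 1 was highest and LT replicate 3 lowest of the LT libraries for 26, against 17.4% of all genes. The median SD of log2(CPM + 0.5) was 0.30 within LT and 0.13 within Fpn-LKO over the 33 genes, and 0.19 and 0.20 over all genes tested. The LT spread was the larger for 30 of 33, against 49.9% of all genes, the exceptions being Acads, Etfb and Bdh1. All 3 Fpn-LKO libraries lay strictly inside the LT range for 23 of 33 genes, against 20.2% of all genes. These are descriptions of 6 livers with no test, since the genes respond together and are not replicates. With RLE factors in place of TMM, the counts of 28, 22 and 30 did not change, and with library totals they were 30, 28 and 32.

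**Figure D3:**
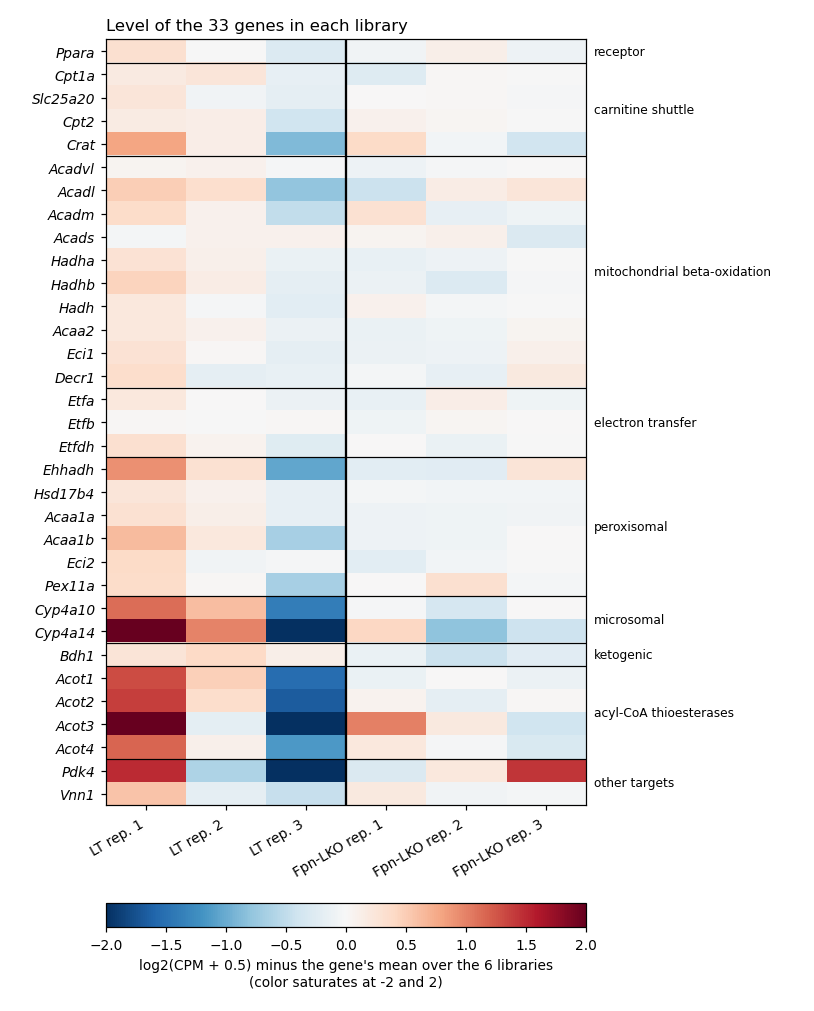
The level of each of the 33 genes in each library, as log2(CPM + 0.5) minus the mean of that gene over the 6 libraries, with red above and blue below the mean and with lines between gene groups and genotypes. LT replicate 1 is red for most genes and LT replicate 3 blue, most strongly in the microsomal genes, the thioesterases and Pdk4, while Bdh1 is above its mean in all 3 LT libraries.

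The pattern differed in size between the gene groups. The median SD within LT was 1.78 for the microsomal genes, 1.501 for the thioesterases and 0.38 for the peroxisomal genes, compared with 0.27 for the carnitine shuttle, 0.22 for mitochondrial β-oxidation and 0.17 for electron transfer. Within Fpn-LKO the same medians were 0.40, 0.19, 0.08, 0.10, 0.12 and 0.07. Relative to each gene's mean over the 6 libraries, the median log2 level of the microsomal genes was 1.59, 0.80 and -1.82 in LT and 0.19, -0.56 and -0.20 in Fpn-LKO. For the thioesterases it was 1.35, 0.22 and -1.59 in LT and 0.15, -0.01 and -0.21 in Fpn-LKO. For the mitochondrial genes it was 0.29, 0.08 and -0.16 in LT and -0.11, -0.10 and 0.0016 in Fpn-LKO, a smaller difference in the same order within LT. Among 6879 genes with a mean of at least 10 CPM, 0.16% had a larger SD within LT than Acot3, 0.204% than Cyp4a14, 0.538% than Acot2, 0.611% than Acot1 and 0.843% than Cyp4a10. For Ehhadh the share was 1.37% and for Acaa1b 3.13%, while for Acadvl it was 88.4% and for Etfb 98.6%.

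**Figure D4:**
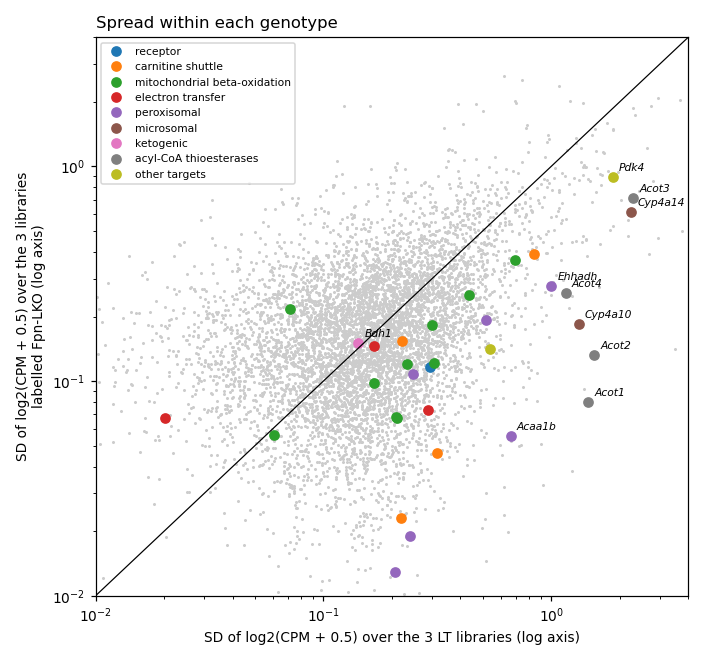
SD of log2(CPM + 0.5) within LT (x axis) against that within Fpn-LKO (y axis), both on log axes, for the 33 genes (colored by group) and for the genes with a mean of at least 10 CPM (gray), with the line of equal spread. Of the 33 genes, 30 lie below the line, and the thioesterases, the Cyp4a genes and Pdk4 lie farthest to the right.

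Several measures differed between the LT libraries beside this pattern. The hepatocyte marker sum given above was highest in LT replicate 1. Pericentral hepatocyte markers (9 genes) summed to 15054, 11942 and 12108 CPM in the LT livers and 14756, 12296 and 13835 CPM in Fpn-LKO, and periportal markers (9 genes) to 3546, 3381 and 3365 CPM in the LT livers and 4787, 4500.1 and 3134 CPM in Fpn-LKO. Cholangiocyte markers (3 of 6 measured) summed to 12.7, 12.4 and 84.4 CPM in the LT livers and 20.9, 29.8 and 20.8 CPM in Fpn-LKO, highest in LT replicate 3. Endothelial markers (8 genes) summed to 423, 483 and 411 CPM in the LT livers and 388, 397 and 359.9 CPM in Fpn-LKO, stellate cell markers (8 genes) to 512, 460.2 and 433 CPM in the LT livers and 501, 488 and 470.5 CPM in Fpn-LKO, and leukocyte and blood markers (8 of 11 measured) to 428, 964 and 366 CPM in the LT livers and 1029, 1256 and 512 CPM in Fpn-LKO. Macrophage markers (10 genes) summed to 287, 387 and 296 CPM in the LT livers and 287, 240.1 and 510.4 CPM in Fpn-LKO. An unadjusted p below 0.05 was found for 3 of the 9 periportal markers (33.3%), all higher in Fpn-LKO, against 4.80% of all genes tested. The count was 1 of 11 for hepatocyte and 1 of 10 for macrophage markers. For endothelial, stellate cell, and leukocyte and blood markers it was 1 of 8 each. It was 0 for pericentral, cholangiocyte, and adipose and pancreas markers. The part of any of these lists in the pattern was not tested. The 5 abundant transcripts without a poly(A) tail (Rn7s1, Rn7s2, Rn7sk, Rpph1 and Rmrp) took 7.65%, 7.83% and 8.76% of counts in LT and 10.2%, 3.29% and 4.49% in Fpn-LKO, and their part in it was not tested either. The 17 circadian genes tested summed to 686, 701 and 702 CPM in the LT livers and 607, 661 and 657 CPM in Fpn-LKO. A sum can stay level while its genes move in opposite directions, so it cannot show whether circadian timing differed within LT. An unadjusted p below 0.05 was found for 3 of the 17 (17.6%), against 4.80% of all genes tested. Per3 (log2 fold change -0.53), Tef (-0.33) and Bhlhe40 (-0.45) were these 3, and their groups did not overlap. They were named for their p, which favors such a gap. Adjusted p-values were 0.570 for Per3 and 0.982 for the others by the quasi-likelihood test of edgeR, Benjamini-Hochberg adjusted. Their part in the pattern was not tested.

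With LT replicate 3 left out, 8 of the 33 genes had an unadjusted p below 0.05, against 5.46% of all genes tested in that fit, and 17 had groups that did not overlap, against 22.4%. That library was picked because it was low in these same genes, and leaving it out can raise both counts by that choice alone. The shares of all genes carry no such choice. The 8 were Bdh1, Hadhb, Ehhadh, Acaa1b, Cyp4a10, Cyp4a14, Acot1 and Acot2, all with values below 0, and the lowest adjusted p among them was 0.643, for Cyp4a10, by the quasi-likelihood test of edgeR, Benjamini-Hochberg adjusted. With LT replicate 1 left out, 2 genes had an unadjusted p below 0.05, against 4.57%, and 4 had groups that did not overlap, against 21.3%. The 2 were Bdh1, still lower in Fpn-LKO, and Pdk4, with a value above 0. The sign of the log2 fold change depended on which LT livers were kept for 20 of the 33 genes, so the signs printed for these 20 are not firm directions. Among the other genes, the sign of Acads and of Etfb turned with an Fpn-LKO library left out, and that of Acadvl on log2(TPM + 1). Of the 20, the sign turned for 15 without LT replicate 1 (Ppara, Slc25a20, Crat, Acadl, Eci1, Decr1, Etfa, Etfdh, Ehhadh, Acaa1b, Acot1, Acot2, Acot3, Acot4 and Vnn1) and for 5 without LT replicate 3 (Cpt2, Acadm, Hadh, Pex11a and Pdk4).

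**Figure D5:**
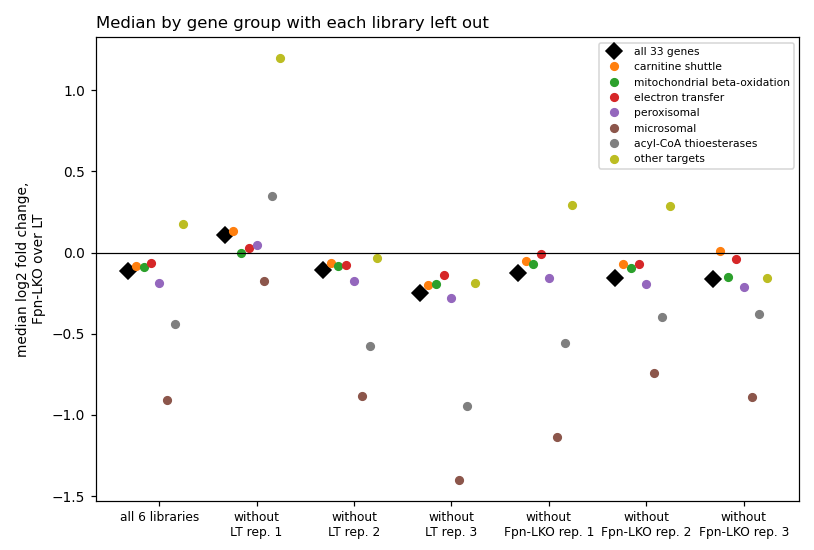
Median log2 fold change (Fpn-LKO over LT) of all 33 genes (diamonds) and of each gene group with more than 1 gene (circles), with all 6 libraries and with each library left out in turn. Leaving out LT replicate 1 brings the median of the 33 from -0.11 to 0.11 and that of the thioesterases from -0.44 to 0.35, whereas leaving out LT replicate 3 moves them to -0.25 and -0.94.

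Compared per transcript length, the most abundant of the 33 genes was Acaa1b, with 1708 ± 865 TPM in LT and 1528 ± 151 TPM in Fpn-LKO. Acaa2 followed with 1109 ± 236 TPM in LT and 1076 ± 127 TPM in Fpn-LKO. In LT, Cyp4a14 (1041 ± 1030.2 TPM) and Cyp4a10 (1015 ± 737 TPM) came next, and neither these 2 nor Acaa2 and Acaa1b differed from their neighbor in the order by more than the larger of both SDs. In Fpn-LKO, Cyp4a10 had 701 ± 41.0 TPM and Cyp4a14 423 ± 151 TPM, the latter below Acadm at 499 ± 53.2 TPM by less than its SD. The carnitine shuttle lay lower, from 26.5 ± 16.3 TPM for Crat to 185 ± 41.1 TPM for Cpt1a in LT. Pdk4 was at the foot of the order with 3.17 ± 3.99 TPM in LT and 4.02 ± 2.66 TPM in Fpn-LKO. All of these are means ± SD of 3 libraries.

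The wider pathway was read from 7 hand-written lists of 152 other genes, of which 142 were tested. None passed after adjustment, and 3 had higher and 4 lower values in Fpn-LKO at an unadjusted p below 0.05, which is 4.93% of those tested, against 4.80% of all genes tested. Besides Hnf4a, these were 6 genes. Acsl3, an acyl-CoA synthetase, had 20.7, 17.3 and 12.2 CPM in the LT livers, against 9.73, 10.8 and 9.55 CPM in Fpn-LKO, a log2 fold change of -0.74 with a 95% interval of -1.21 to -0.27. Acacb, the acetyl-CoA carboxylase whose product malonyl-CoA inhibits carnitine palmitoyltransferase, had 8.22, 15.2 and 8.87 CPM in the LT livers, against 12.2, 27.7 and 18.0 CPM in Fpn-LKO, a log2 fold change of 0.84 with a 95% interval of 0.04 to 1.64. Both are from the 19 genes of fatty acid activation and carnitine supply. Of 18 other mitochondrial genes there was Acad10, an acyl-CoA dehydrogenase family member, with 69.3, 44.1 and 48.0 CPM in the LT livers, against 37.0, 43.6 and 27.2 CPM in Fpn-LKO, a log2 fold change of -0.58 with a 95% interval of -1.11 to -0.05. Of 33 other peroxisomal genes there was Decr2, the peroxisomal dienoyl-CoA reductase, with 308, 318 and 262 CPM in the LT livers, against 252, 222 and 225 CPM in Fpn-LKO, a log2 fold change of -0.34 with a 95% interval of -0.64 to -0.05. Acsl3, Acad10 and Decr2, like Bdh1, were lower in every library labelled Fpn-LKO than in any LT library. Acsl3, Acad10 and Decr2 were named for their unadjusted p, which favors such a gap. The 10.6% of all genes without overlap is therefore no even reference for them. Of 16 other microsomal genes there was Cyp4a12a, a male-predominant ω-hydroxylase, with 82.4, 169.6 and 121 CPM in the LT livers, against 155, 242 and 273 CPM in Fpn-LKO, a log2 fold change of 0.84 with a 95% interval of 0.15 to 1.54, overlapping and with the sign opposite to that of Cyp4a10 and Cyp4a14. Of 26 other PPARα targets there was Pdk1, a pyruvate dehydrogenase kinase, with 119.8, 106 and 90.9 CPM in the LT livers, against 86.4, 86.9 and 71.5 CPM in Fpn-LKO, a log2 fold change of -0.37 with a 95% interval of -0.70 to -0.04, and its groups did not overlap. Pdk1 too was named for its unadjusted p, so the 10.6% is no even reference for its gap either. Adjusted p-values of these 6 genes were 0.863 for Acsl3 and 0.982 for the others by the quasi-likelihood test of edgeR, Benjamini-Hochberg adjusted.

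The order of the LT livers was also looked for in the 142 genes of the wider lists. LT replicate 1 was highest of the 6 libraries for 45 of them (31.7%) and LT replicate 3 lowest for 50 (35.2%), against 14.7% and 18.7% of all genes tested. The shares varied by list. They were 34.6% and 57.7% for the 26 other PPARα targets, 15% and 25% for the partners and coregulators, and 52.6% and 10.5% for fatty acid activation and carnitine supply. Named after their values were seen, Abcd2, a peroxisomal transporter of very long acyl chains, had 70.0, 25.1 and 5.51 CPM in the LT livers, against 56.9, 16.8 and 19.0 CPM in Fpn-LKO, and Aldh3a2, which oxidizes fatty aldehydes, had 1130.3, 827 and 353 CPM in the LT livers, against 878, 550.0 and 542 CPM in Fpn-LKO. In Fgf21, Cd36 and Plin2 the LT livers kept this order, but the highest of the 6 libraries was an Fpn-LKO one. Fgf21, a hepatokine induced by PPARα, had 35.2, 21.4 and 11.2 CPM in the LT livers, against 14.8, 17.2 and 35.3 CPM in Fpn-LKO, with LT replicate 1 and Fpn-LKO replicate 3 about equal. Cd36, a fatty acid translocase, had 148, 60.0 and 39.9 CPM in the LT livers, against 291, 101 and 104 CPM in Fpn-LKO, with Fpn-LKO replicate 1 the highest library and a log2 fold change of 1.00 (95% interval -0.35 to 2.34). Plin2, which coats lipid droplets, had 917, 730.1 and 397 CPM in the LT livers, against 909, 828 and 1068 CPM in Fpn-LKO, with LT replicate 3 lowest, Fpn-LKO replicate 3 highest and a log2 fold change of 0.46 (95% interval -0.23 to 1.14).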

How the data were processed

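Liver RNA of 6 mice was sequenced. Per the labels, total RNA went into a stranded mRNA kit, while the study's methods name a total RNA kit, and which applies is not settled here. The submitters' processing notes list HISAT2 2.1.0, Bowtie2 2.3.4.1 and StringTie 2.1.3b and build mm10. The authors deposited 1 table with read counts per gene, FPKM and TPM. The deposited FPKM values were not used. Deposited TPM values were used per length and in limma alternatives.

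Dropping genes that had 0 reads in more than 1 library, as in the study's methods, left 17274 that were tested with edgeR 4.0.16 (TMM, quasi-likelihood test, R 4.3.3) on the counts. Calls used an adjusted p below 0.05 (Benjamini-Hochberg over all genes). The SE was derived from the F statistic. Alternatives were RLE and no scaling, DESeq2 1.42.0, edgeR's exact test, other filters, a replicate block, limma 3.58.1 on TPM, and each library left out. Near-identical copies were searched among GENCODE M21 transcripts with BLAST (at least 90% identity over 200 bases or more), which found at least 1 for 14 of the 33 genes. All 33 genes are named, and of the other lists those with an unadjusted p below 0.05. The genes and lists were chosen with earlier results of these data known. Replicates are separate samples in the labels. No source used here says how the livers were sampled, so p-values measure the spread between these samples. Totals of 43086184 to 47778683 counts leave little counting error beside that spread.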

Additional observations from a re-analysis of the deposited data

How the results depend on the processing

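The finding that none of the 33 genes, and none of the 142 other pathway genes, passed an adjusted p of 0.05 held under all 16 alternatives. The number of genes called over all genes, 4, became 72 with DESeq2, 63 with edgeR's exact test, 7 on log2(TPM + 0.1) and 0 with the replicate block, and ran from 0 to 6 with 1 library left out. Deviations from the group means had correlations of 0.129, -0.00948 and 0.0448 between same-numbered libraries. Over all pairs of an LT and an Fpn-LKO library they ran from -0.0977 to 0.129. With 3 libraries in each group, these values cannot show whether the numbers pair the livers. With the replicate block, 0 of the 33 genes were called, 26 had a log2 fold change below 0, and the value turned to 0.51 for Acot3 and 0.055 for Vnn1. The count at an unadjusted p below 0.05, 1, became 0 on log2(TPM + 0.1) and ran from 1 to 8 with 1 library left out, and the count without overlap, 1, ran from 1 to 17. The 8 and the 17 came without LT replicate 3, where the shares of all genes were 5.46% and 22.4%. With all 6 libraries those shares were 4.80% and 10.6%. LT replicate 3 was picked because it was low in these same genes, which can raise both counts. Leaving out 1 library gave medians of -0.25 to 0.11 for the 33 genes, -0.20 to 0.13 for the carnitine shuttle, -0.28 to 0.047 for the peroxisomal genes, -1.40 to -0.18 for the microsomal genes, -0.94 to 0.35 for the thioesterases and -0.18 to 1.20 for the 2 other targets, with LT replicate 1 behind the upper end of each. On log2(TPM + 1) the microsomal median, -0.91, was -0.29, the thioesterase median, -0.44, was 0.028 and the value of Cyp4a14, -1.27, was -0.44. Log2 fold changes with 1 library left out crossed 0 for these genes, over the ranges -0.18 to 0.11 for Ppara, -0.099 to 0.12 for Slc25a20, -0.11 to 0.14 for Cpt2, -0.48 to 0.30 for Crat, -0.40 to 0.14 for Acadl, -0.19 to 0.22 for Acadm, -0.16 to 0.035 for Acads, -0.087 to 0.12 for Hadh, -0.20 to 0.036 for Eci1, -0.13 to 0.17 for Decr1, -0.15 to 0.027 for Etfa, -0.054 to 0.012 for Etfb, -0.25 to 0.035 for Etfdh, -0.69 to 0.17 for Ehhadh, -0.50 to 0.11 for Acaa1b, -0.097 to 0.39 for Pex11a, -1.03 to 0.12 for Acot1, -0.99 to 0.31 for Acot2, -0.90 to 1.35 for Acot3, -0.75 to 0.38 for Acot4, -0.34 to 2.04 for Pdk4, -0.21 to 0.35 for Vnn1 and -0.11 to 0.14 for Slc40a1. On log2(TPM + 1) the sign turned to 0.072 for Ppara, 0.089 for Slc25a20, 0.025 for Crat, 0.017 for Acadvl, 0.061 for Acadl, 0.0019 for Acads, 0.0071 for Eci1, 0.079 for Decr1, 0.027 for Etfa, 0.067 for Etfb, 0.017 for Acot2, 0.52 for Acot3, 0.039 for Acot4 and 0.15 for Vnn1, and these values were the same with every gene above 0 TPM tested. On log2(TPM + 0.1) they were 0.073 for Ppara, 0.090 for Slc25a20, 0.034 for Crat, 0.017 for Acadvl, 0.064 for Acadl, 0.0016 for Acads, 0.0072 for Eci1, 0.080 for Decr1, 0.027 for Etfa, 0.067 for Etfb, 0.043 for Acot2, 0.65 for Acot3, 0.053 for Acot4 and 0.15 for Vnn1. With library totals and no scaling, Slc40a1 had -0.0013. The cause of these changes was not tested. The 95% intervals rest on 3 livers in each group and are not adjusted over genes. Those of the Cyp4a genes, the thioesterases, Ehhadh, Crat and Pdk4 include differences of over 2-fold.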
